A study of Mus musculus with 14 samples.

Results

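The opioid peptide precursors are 4 genes, Penk, Pdyn, Pnoc and Pomc. They were taken by gene symbol, so no measured value chose them, and all 4 were found among the 20837 genes common to the accumbens tables and among the 32920 genes of the sorted-cell table. Each encodes a protein that is cut into short opioid peptides inside secretory granules. Penk yields Met- and Leu-enkephalin, Pdyn yields dynorphins, Pnoc yields nociceptin, and Pomc yields β-endorphin together with ACTH and melanocortins. Enkephalins and β-endorphin act mainly on the μ and δ opioid receptors (Oprm1, Oprd1), dynorphins on the κ receptor (Oprk1) and nociceptin on the receptor encoded by Oprl1; morphine acts mainly on the μ receptor. In the nucleus accumbens, a part of the ventral striatum, the main neurons are inhibitory medium spiny neurons. Those with the dopamine D2 receptor are known for Penk and those with the D1 receptor for Pdyn, whereas the known sources of Pomc transcripts are the pituitary and the hypothalamus.

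The study compared male C57BL/6 mice injected into the peritoneum with morphine sulfate with mice injected with saline (mock); the labels give no dose and no time of collection. Drop-seq, which tags each captured polyadenylated transcript with a unique molecular identifier (UMI) and each cell with a barcode, was applied to 4 morphine and 4 mock pools of nucleus accumbens, each from 2 mice. In both groups pools 1 and 2 came from mice of 37 to 45 days and pools 3 and 4 from mice of 78 to 82 days. Oligodendrocytes were in addition sorted by FACS from whole brains of mice of 70 days, in 3 morphine and 3 mock samples. The pools held 2747 to 5700 cells with 6703923 to 19889637 UMIs after morphine and 2870 to 5577 cells with 7847612 to 24160208 UMIs after mock, and the sorted samples held 18306640 to 23456702 and 14989118 to 21564115 reads in genes. Cells were grouped into 19 named classes by markers, with the 4 precursors left out of the clustering, and the 8 general markers of spiny neurons summed to 8686 in the D1 class as CPM (UMIs of a gene in 1000000 UMIs of the same cells) and 10138 CPM in the D2 class. Of 35944 barcode sequences, 47 occurred in more than 1 pool.

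The peptides are written in the genes as short units, which are repeated in Penk and Pdyn, and the number of units differs between the precursors. The set below was chosen to show the enkephalin unit in its Met form, its Leu form and the nociceptin form. Capitals mark the 15 bases that encode the enkephalin pentapeptide, or the first 5 residues of nociceptin, and the lower-case bases are the 2 codons on either side. The pair before each unit encodes basic residues, at which such precursors are cut; the pair after it does so in Penk units 1 and 6 and both Pdyn units, but not in Penk unit 7, Pnoc unit 1 and Pomc unit 1.
Penk unit 1: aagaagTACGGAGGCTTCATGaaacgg
Penk unit 6: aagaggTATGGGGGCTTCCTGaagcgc
Penk unit 7: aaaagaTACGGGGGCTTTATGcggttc
Pdyn unit 1: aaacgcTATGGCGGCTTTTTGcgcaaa
Pdyn unit 2: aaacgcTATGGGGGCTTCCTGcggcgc
Pnoc unit 1: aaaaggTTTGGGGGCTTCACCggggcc
Pomc unit 1: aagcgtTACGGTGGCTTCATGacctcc
The coding sequence of Penk held 7 such units, 6 of the Met form and 1 of the Leu form. Pdyn held 3, all of the Leu form, Pomc held 1 of the Met form and Pnoc held 1 of the nociceptin form. Every unit, including those not shown, followed a pair of codons for basic residues. In the GENCODE annotation of GRCm38 (mm10), from whose transcripts these sequences were read, the capitals of Penk units 1, 6 and 7 lie at chr4:4134334-4134348, chr4:4133941-4133955 and chr4:4133848-4133862 on the minus strand. Those of Pdyn units 1 and 2 lie at chr2:129688238-129688252 and chr2:129688130-129688144 on the minus strand, that of Pnoc at chr14:65404878-65404892 on the minus strand and that of Pomc at chr12:3960373-3960387 on the plus strand. All are coding and each lies within 1 exon.

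The genes themselves span chr4:4133531-4138819 (Penk, 2 exons, 1449 transcript bases), chr2:129686565-129699844 (Pdyn, 4 exons, 2386 bases), chr14:65400673-65425472 (Pnoc, 4 exons, 2157 bases) and chr12:3954951-3960642 (Pomc, 3 exons, 1031 bases). A UMI counts a transcript of the gene and does not tell the peptides apart. Of the 4, only Penk overlaps another annotated gene, A830012C17Rik on the opposite strand. That gene had 512 UMIs in morphine and 399 in mock D2 neurons, where Penk had 106018 and 126180, and 18 against 15 reads in sorted oligodendrocytes. The strand of counting is not given in the sources used here.

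Penk marked the D2 medium spiny neurons. Over the 8 pools it averaged 14519 ± 1064 CPM (SD, n = 8) in this class, with pools between 12772 and 15651 CPM. The next named class in order was mural cells with 1311 ± 731 CPM, and the lowest was newly formed oligodendrocytes with 344 ± 197 CPM. Left out of this order were spiny neurons that met no class rule, with 3829 ± 708 CPM, and mixed clusters, with 2253 ± 974 CPM. The pools of the D2 class did not overlap those of any other class, while every other neighbour in the order overlapped. D1 medium spiny neurons stood in place 10 of 18 classes with 752 ± 210 CPM, below microglia with 1257 ± 754 CPM.

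Pdyn marked the D1 medium spiny neurons, with 319 ± 116 CPM (SD, n = 8) and pools between 140 and 496 CPM. Mural cells came next with 70.2 ± 36.9 CPM, and their pools, between 20.1 and 132 CPM, stayed below every D1 pool. Choroid plexus, with at most 35 cells in a pool, was the only named class to reach into the D1 range, at 290 CPM in its highest pool. Spiny neurons that met no class rule had 178 ± 56.9 CPM. Their highest pool, at 254 CPM, also lay in that range, as did the highest of the mixed clusters, at 144 CPM. The D2 class was the lowest of the 18 classes, at 16.2 ± 5.41 CPM. Among the named classes Pnoc was highest in non-spiny neurons of other kinds, at 82.4 ± 36.5 CPM, followed by the Sst and Npy interneurons at 35.5 ± 27.3 CPM and the Pthlh, Kit and Pvalb interneurons at 35.3 ± 30.5 CPM. These 3 neighbours overlapped one another, and microglia, next in order, had 6.52 ± 7.93 CPM, with pools up to 20.9 CPM that overlapped those of both interneuron classes. Pomc had 358 UMIs in all morphine cells and 325 in all mock cells. Its highest classes were ependymal cells with 35.6 ± 15.7 CPM (n = 7 pools with enough cells) and endothelial cells with 17.5 ± 8.49 CPM, and oligodendrocyte precursors followed with 10.2 ± 8.21 CPM.

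**Figure D1:**
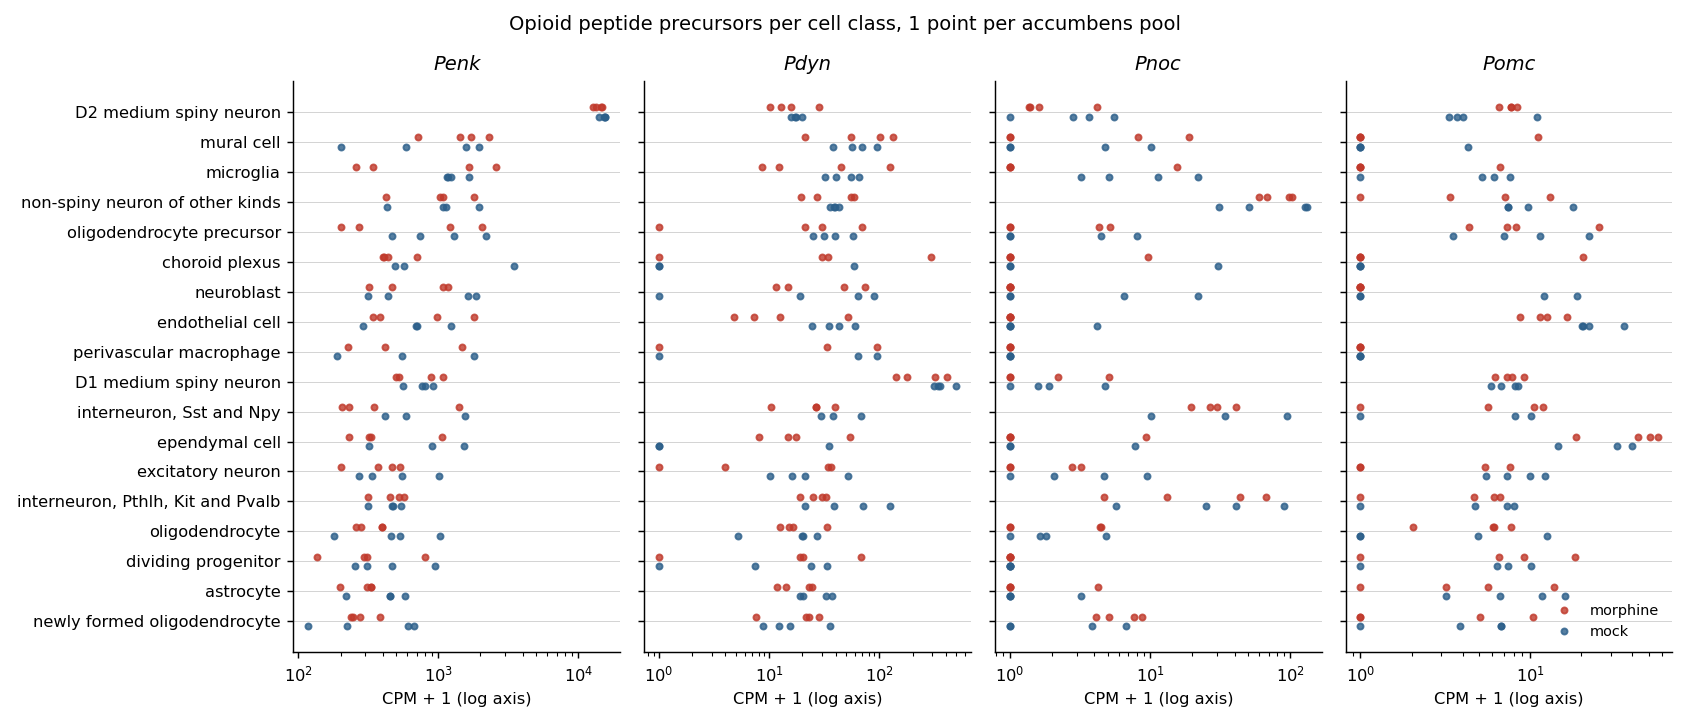
CPM + 1 on a log axis of the 4 precursors in 18 cell classes, ordered by Penk, with 1 point per pool (red morphine, above; blue mock, below). Penk stands apart in D2 neurons at 12772 to 15651 CPM, and Pdyn is highest in D1 neurons at 140 to 496 CPM, while Pnoc has its highest means in the 3 classes of non-spiny neurons, both interneuron classes overlapping microglia, and Pomc is highest in ependymal and endothelial cells.

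Penk and Pdyn UMIs also occurred in cells that should lack neuropeptide precursors. Microglia, endothelial and mural cells together had 1037 ± 527 CPM of Penk, 42.7 ± 21.3 CPM of Pdyn, 3.09 ± 2.98 CPM of Pnoc and 9.98 ± 4.15 CPM of Pomc. For Pomc this is mostly the endothelial level, as endothelial cells held 64 of the 73 UMIs. Microglia had 2.71 ± 2.97 CPM of Pomc and mural cells 1.67 ± 3.58 CPM. Barcodes that failed the cell filter had a median over pools of 941 CPM of Penk, 63.9 CPM of Pdyn, 8.04 CPM of Pnoc and 0.99 CPM of Pomc. The level of Penk in D1 neurons, 752 ± 210 CPM, was therefore not above that of these cells and barcodes. It stood in place 10 of 18 classes, above for example astrocytes with 358 ± 128 CPM and excitatory neurons with 467 ± 254 CPM. These levels were no common floor, as Pdyn in D2 neurons, at 16.2 ± 5.41 CPM, was below 42.7 CPM. The median depth was 3310 UMIs in D1 neurons and 1400.5 UMIs in microglia, endothelial and mural cells. There were 27.5 Penk UMIs per Pdyn UMI over all cells. In microglia, endothelial cells, mural cells, oligodendrocytes, astrocytes and oligodendrocyte precursors the ratio of summed UMIs lay between 16.2 (mural cells) and 27.4 (oligodendrocyte precursors), whereas it was 876 in D2 neurons and 2.11 in D1 neurons. Other classes lay outside this band, such as Pthlh, Kit and Pvalb interneurons at 10.4 and ependymal cells at 35.6. Single pools ranged from 4.86 to 465 in endothelial cells, from 1.54 to 6.14 in D1 neurons and from 467 to 1583 in D2 neurons. Pools of endothelial cells and D1 neurons thus overlapped.

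The Penk level in microglia differed widely between pools of 1 treatment. It was 2603, 1645, 338 and 259 CPM in morphine pools 1 to 4, and 1151, 1232, 1176 and 1649 CPM in mock pools 1 to 4. Penk in D1 neurons of the same pools was 1080, 886, 519 and 501 CPM after morphine and 915, 798, 765 and 555 CPM after mock. The 2 morphine pools with the most Penk in microglia were also the 2 with the most in D1 neurons, while the mock pools showed no such order. The level of microglia, endothelial and mural cells of the same pool was also subtracted, with negative differences counted as no Penk. D1 neurons then had means of 22.5 ± 44.98 CPM of Penk in morphine pools and 47.7 ± 95.4 CPM in mock pools. In each group 1 pool held the whole value and the others none, so these means are not a typical remaining level.

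Shares of cells were compared after each cell was thinned to 1000 UMIs. Penk was found in 97.2% ± 1.10 of D2 neurons (SD over 8 pools; 97.6% unthinned, median depth 3147 UMIs). The share was 27.05% ± 6.399 of D1 neurons (53.5% unthinned, 3310 UMIs) and 30.1% ± 8.76 of microglia, endothelial and mural cells (40.4% unthinned, 1400.5 UMIs). The D1 share was thus not above that of these background cells. Pdyn was found in 24.0% ± 7.11 of D1 neurons, against 1.92% ± 0.776 of D2 neurons and 2.62% ± 1.08 of the background cells. For Pnoc the share was 6.17% ± 1.99 of non-spiny neurons, against 0.333% ± 0.277 of the background cells. Non-spiny neurons as a group join the named non-spiny classes and the unnamed cluster led by Cplx3, Ndnf and Kit.

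Per cell, the 2 precursors were spread differently. D2 neurons had a median of 13 Penk UMIs per 1000, with a 5th percentile of 2 and a 95th percentile of 28; the median was 13 in morphine and 14 in mock cells. At least 5 Penk UMIs were present in 90.7% of D2 neurons, in 4.57% of D1 neurons (251 of 5491) and in 4.03% of the background cells (104 of 2581). The 251 D1 neurons had a Pdyn UMI in 14.3% of cases, against 25.1% of all D1 neurons. Penk thus formed a broad, high distribution in D2 neurons, and 74.9% of D1 neurons had no Pdyn UMI at this depth.

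**Figure D2:**
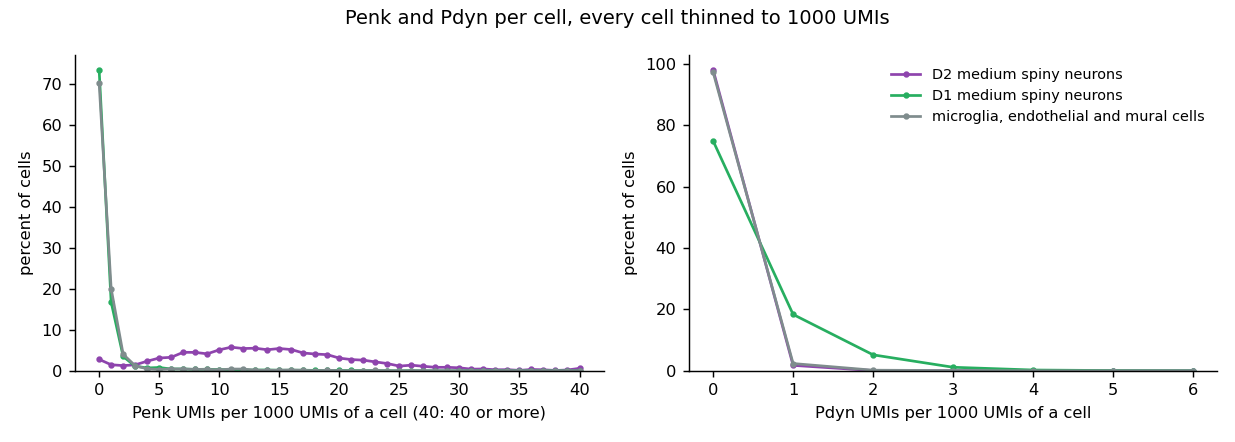
Percent of cells (vertical axis) by the number of Penk UMIs (left) or Pdyn UMIs (right) in cells thinned to 1000 UMIs, for D2 neurons, D1 neurons, and microglia, endothelial and mural cells, all 8 pools together. The D2 neurons form a broad peak around 13 Penk UMIs while the D1 neurons lie on the background cells for Penk and to the right of them for Pdyn.

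Within the spiny classes the precursors varied from cluster to cluster. Among the D2 clusters, Penk averaged 12630 ± 992 CPM in the cluster led by P2ry1, Gpr6 and Adora2a, 15203 ± 1780 CPM in that led by Gpr6, Adora2a and Hpca and 15772 ± 1459 CPM in that led by Adora2a, Gpr6 and Nt5e. Adora2a encodes the adenosine A2a receptor and Gpr6 an orphan receptor, both known in D2 neurons. Among the D1 clusters, Pdyn had means over 8 pools of 256 ± 129 CPM (led by Drd1, Acvr1c and Nexn), 308 ± 153 CPM (Drd1, Asic4, Slc35d3), 365 ± 86.3 CPM (Dlk1, Isl1, Tac1) and 432 ± 112 CPM (Tac1, Drd1, Cartpt). Neighbours in that order overlapped. A small D1 cluster of 97 cells, led by Tnnt1, Otof and Fstl1, had 203 ± 61.1 CPM in the 5 pools with at least 10 of its cells. A cluster of spiny neurons that met no class rule, led by Lypd1, Sphkap and Tshz1, had 130 ± 37.2 CPM of Pdyn and 2353 ± 911 CPM of Penk. Another, led by Pkib, Rreb1 and Npy1r, had 18 Pdyn UMIs in 501 cells. The largest such cluster, of 895 cells led by Otof, Rxrg and Necab1, had 3338 ± 454 CPM of Penk and 90.1 ± 67.2 CPM of Pdyn.

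Another spiny cluster of 593 cells was led by Egr4, Nr4a3 and Nr4a1, which are immediate-early genes, and held both spiny types. It was split by whether a cell had more D1 or D2 marker UMIs, a division chosen after its values were seen. Its 383 D1-marker cells had 601 ± 230 CPM of Pdyn (n = 8 pools), against 319 ± 116 CPM in the D1 class, and were above the D1 class of the same pool in 6 of 8 pools. Its 188 D2-marker cells had 18545 ± 4129 CPM of Penk, against 14519 ± 1064 CPM in the D2 class, and were higher in 7 of 8 pools. The D2-marker cells had 16.4 ± 17.6 CPM of Pdyn and the D1-marker cells 877 ± 737 CPM of Penk, both close to the levels of their classes, so each precursor stayed with its own spiny type.

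Among non-spiny neurons, Pnoc differed widely between clusters. A cluster of 49 cells led by Cplx3, Ndnf and Kit, which met no class rule, held 316 Pnoc UMIs, and the 2 pools with at least 10 of its cells had 415 CPM (morphine) and 543 CPM (mock). The cluster led by Nts, Lbhd2 and Baiap3 had 162 ± 208 CPM (n = 6 pools, from 4.84 to 531 CPM), and those led by Gpx3, Gabrq and Prlr and by Lbhd2, Prkcd and Zic1 had 110 ± 24.7 CPM (n = 5) and 100.3 ± 40.3 CPM (n = 5). A cluster of 34 cells led by Vip, Igf1 and Crh held 46 Pnoc UMIs beside 336 Penk and 2 Pdyn UMIs. Pdyn in the cluster led by Th, Trh and Crabp1 was 146 ± 86.3 CPM (n = 7 pools), from 48 UMIs in 100 cells. In the cluster led by Cort, Pvalb and Kcnc2 it had 71 UMIs, and its 3 pools lay between 4.74 and 505 CPM.

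**Figure D3:**
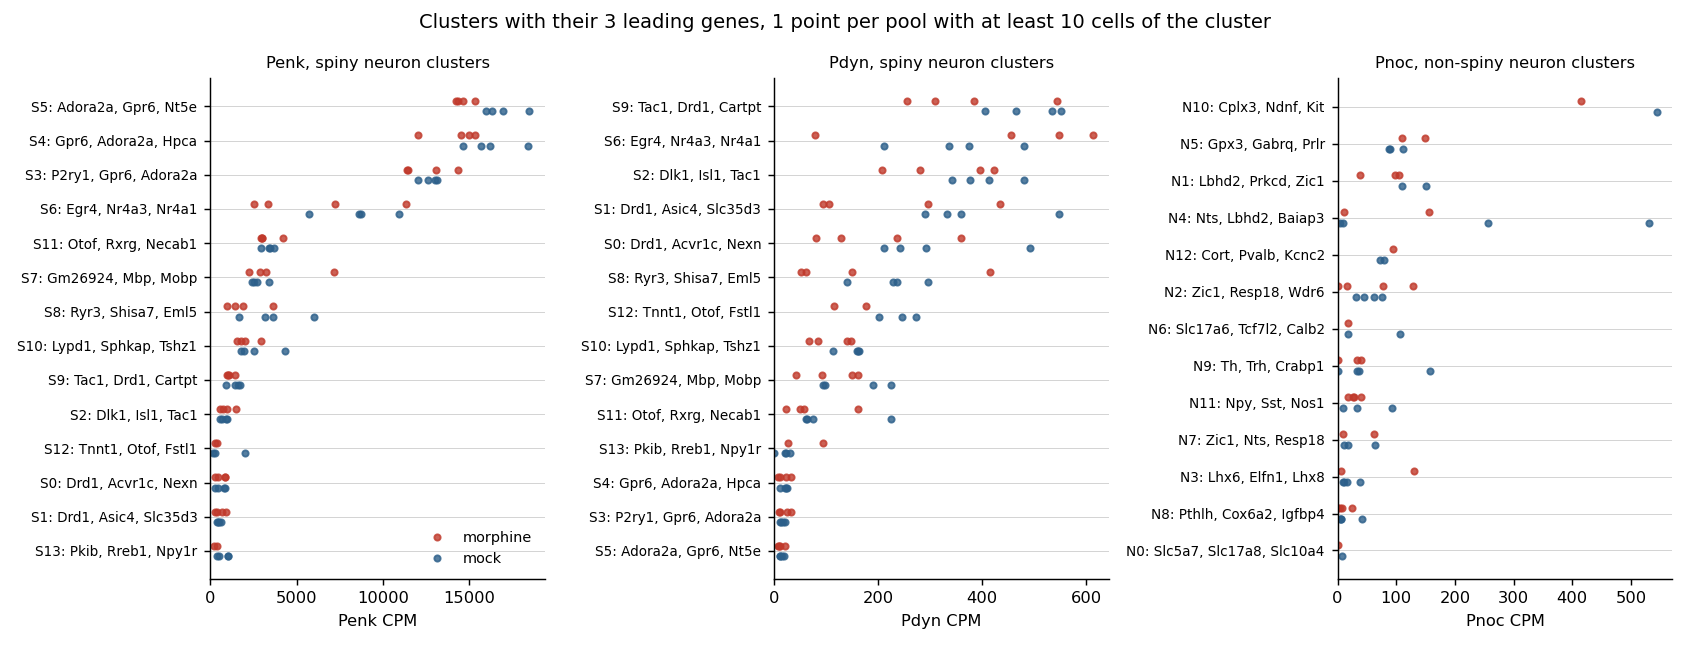
CPM of Penk and Pdyn in the spiny clusters and of Pnoc in the non-spiny clusters, each cluster labelled by its 3 leading genes, with 1 point per pool that had at least 10 of its cells (red morphine, above; blue mock, below). Penk is highest in the 3 D2 clusters at 11383 to 18454 CPM, Pdyn is highest in the cluster led by Tac1, Drd1 and Cartpt, and Pnoc in the cluster led by Cplx3, Ndnf and Kit.

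The genes most like each precursor were sought by Pearson correlation of mean log2(CPM + 1) over 18 classes, among 12740 genes, as a description over classes that share libraries and free RNA. For Penk they included Gpr6 (r = 0.95) and Adora2a (0.92). For Pdyn they were Tac1, the precursor of substance P (0.90), Chrm4, a muscarinic receptor (0.79), and Drd1 (0.79). Gpr6 and Adora2a were among the D2 markers, and Tac1 and Drd1 among the D1 markers, by which the classes were named. Their high levels in those classes were thus set in part by the naming. For Pnoc they were Htr7, a serotonin receptor (0.89), BC029722 (0.87) and A330076H08Rik (0.85), and for Pomc 8430429K09Rik (0.86), 4430402I18Rik (0.83) and Megf6 (0.79).

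Whether morphine changed the precursors was tested on UMIs summed per pool, with edgeR's quasi-likelihood test and Benjamini-Hochberg adjustment over all genes of a comparison; a call means an adjusted p under 0.05. None of the 4 precursors was called in all accumbens cells or in any class where it passed the filter on low counts; of the classes, oligodendrocytes had 9 genes called (0.104%), astrocytes 3 (0.041%) and the others 0. Over all cells 0% of 15022 genes were called, and 249 genes (1.66%) had an unadjusted p under 0.05. In D1 neurons 0% of 11125 genes were called (283, or 2.54%, at an unadjusted p under 0.05), in D2 neurons 0% of 10518 (311, or 2.96%) and in non-spiny neurons 0% of 10182 (131, or 1.29%). Groups that did not overlap made up 1.72% of genes in all cells, 2.09% in D1 neurons, 2.43% in D2 neurons and 1.67% in non-spiny neurons. DESeq2 called 4, 1, 1 and 0 genes in these comparisons; the 4 precursors in all cells, Pdyn in D1, Penk in D2 and Pnoc in non-spiny neurons were not among them. All 4 precursors passed the filter on low counts in all cells, whereas Pnoc did not in D1 and D2 neurons, nor Pomc in non-spiny neurons.

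Penk in D2 neurons was 14871, 12772, 14514 and 13291 CPM in morphine pools 1 to 4, against 15651, 15339, 15584 and 14129 CPM in mock pools 1 to 4. Morphine pools 2 and 4 lay below every mock pool, and the groups overlapped. The means were 13862 ± 993 and 15176 ± 710 CPM (SD, n = 4 each). The log2 fold change of morphine over mock was -0.06 (SE 0.12, adjusted p = 1.00, edgeR), and -0.11 in the pools of younger mice and -0.01 in those of older mice. In an exact two-sided permutation test of the CPM, whose smallest possible p is 0.0286, p was 0.0857 and, adjusted over 81 class and gene tests, 1. The 3 D2 clusters, tested after the class values were seen, gave 12569 ± 1429 against 12692 ± 494 CPM, 14195 ± 1495 against 16211 ± 1564 CPM and 14626 ± 499 against 16917 ± 1103 CPM, in the order in which they are named above. Only in the last did the pools not overlap (exact permutation p = 0.0286, adjusted over 7 clusters 0.2). In the D2 class as a whole 2.43% of all genes did not overlap, and the share within this cluster, which has fewer cells, was not computed.

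Pdyn in D1 neurons was 176, 411, 140 and 317 CPM in morphine pools 1 to 4, against 312, 338, 496 and 357 CPM in mock pools 1 to 4. Morphine pools 1 and 3 were the lowest of all, morphine pool 2 was above 3 of the 4 mock pools, and the groups overlapped. The means were 261 ± 126 and 376 ± 82.4 CPM, with a log2 fold change of -0.45 (SE 0.28, adjusted p = 1.00, edgeR). The value was -0.09 in the pools of younger mice and -0.79 in those of older mice, and the difference between the ages was -0.70 (SE 0.55, unadjusted p = 0.226, edgeR's interaction term). With equal weight to each D1 cluster, an alternative added after seeing the data, the means were 266 ± 102 and 369 ± 67.6 CPM. The 4 D1 clusters with enough cells in every pool had lower means in morphine pools, with exact permutation p between 0.143 and 0.257 and 0.3 after adjustment over 7 clusters. The small D1 cluster, not tested, had 147 ± 43.7 CPM in 2 morphine pools and 240.4 ± 36.1 CPM in 3 mock pools.

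The response of the precursors to morphine was not shown to differ between the spiny types. D2 minus D1, the log2 difference was -0.08 (SE 0.11, adjusted p = 1.00) for Penk and 0.37 (SE 0.19, unadjusted p = 0.0638, adjusted p = 0.998) for Pdyn in edgeR's quasi-likelihood test with the pool as a block, in which 0.00882% of 11342 genes were called. Pdyn in D2 neurons, where it stood below microglia, endothelial and mural cells together, averaged 15.8 ± 8.05 CPM after morphine and 16.5 ± 1.73 CPM after mock. Penk in D1 neurons averaged 746 ± 284 and 758 ± 150 CPM (log2 fold change 0.05, SE 0.23).

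Pnoc in non-spiny neurons was 92.9, 69.3, 32.4 and 82.5 CPM in morphine pools 1 to 4, from 335, 542, 91 and 164 cells. In mock pools 1 to 4 it was 136, 84.2, 58.2 and 79.7 CPM, from 224, 310, 264 and 222 cells. The lowest value belonged to the morphine pool with the fewest cells, and the groups overlapped. Of the 895 Pnoc UMIs of this group, 316 came from the 49 cells of the unnamed cluster led by Cplx3, Ndnf and Kit. The means were 69.3 ± 26.4 and 89.5 ± 32.9 CPM, and the log2 fold change was -0.26 (SE 0.29, adjusted p = 1.00, edgeR), with -0.39 in the pools of younger mice and -0.10 in those of older mice. Pdyn in the Pthlh, Kit and Pvalb interneurons had the smallest unadjusted p of any precursor in a class, 0.0215 (adjusted p = 1.00, edgeR), at 25.8 ± 6.23 CPM from 59 UMIs after morphine and 62.9 ± 45.6 CPM from 121 UMIs after mock, and its pools overlapped. Mock pool 3 held 78 of the 121 UMIs, 63 of them in 20 cells of the cluster led by Cort, Pvalb and Kcnc2. It stood at 124 CPM, against 70.2, 37.6 and 20.1 CPM in mock pools 1, 2 and 4 and 18.0 to 32.0 CPM in the morphine pools.

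Pomc in endothelial cells had 2, 9, 4 and 5 UMIs in morphine pools 1 to 4, which is 7.68, 15.4, 11.6 and 10.5 CPM. In mock pools 1 to 4 it had 6, 10, 13 and 15 UMIs, which is 19.3, 19.4, 34.8 and 21.1 CPM. Every morphine pool was below every mock pool, at means of 11.3 ± 3.20 and 23.7 ± 7.47 CPM. Among all genes tested in this class 2.67% did not overlap and 0% were called, and 183 (2.73%) had an unadjusted p under 0.05. Pomc did not pass the filter on low counts there, and the exact two-sided permutation p of 0.0286, the smallest this design allows, was 1 after adjustment over 81 tests. In ependymal cells Pomc had 22 UMIs in morphine and 9 in mock cells, and 41.3 ± 16.7 CPM (n = 4) against 28.1 ± 13.04 CPM in the 3 mock pools with at least 10 such cells, with overlapping pools. Of the 8 markers of pituitary and hypothalamic cells, 6 were in the tables. Crh, which cortical interneurons also express, had 9 UMIs in endothelial cells and 1 in ependymal cells. Cga, Avp, Oxt, Agrp and Tbx19 had 0, 0, 3, 1 and 1 UMIs in endothelial cells and 0 each in ependymal cells, where a count of 0 allows up to 3 UMIs. Gh and Prl were not analysed here.

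**Figure D4:**
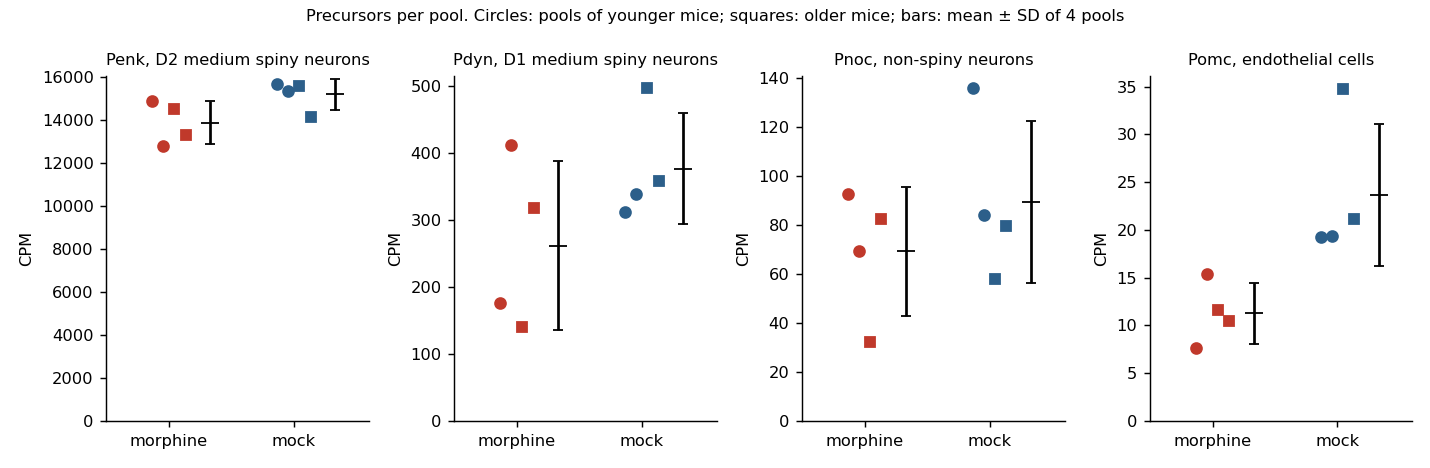
CPM per pool (vertical axis, from 0) of Penk in D2 neurons, Pdyn in D1 neurons, Pnoc in non-spiny neurons and Pomc in endothelial cells, for morphine (left) and mock (right); circles are pools of younger mice, squares of older mice, and bars show the mean ± SD of 4 pools. The groups overlap in the first 3 panels, and in the last the morphine pools, 7.68 to 15.4 CPM, lie below the mock pools, 19.3 to 34.8 CPM.

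Over all accumbens cells, which adds any change in the mix of cells, Penk averaged 2962 ± 546 CPM after morphine and 3308 ± 461 CPM after mock. Pdyn averaged 90.1 ± 42.01 and 118 ± 13.7 CPM, Pnoc 10.6 ± 7.12 and 12.2 ± 5.21 CPM, and Pomc 6.53 ± 0.414 and 6.53 ± 1.66 CPM. Their log2 fold changes were -0.09 (SE 0.18), -0.31 (SE 0.27), -0.12 (SE 0.49) and 0.09 (SE 0.20), and all 4 genes had overlapping groups. In pools of younger mice, then of older mice, they were -0.20 and 0.02 for Penk, 0.01 and -0.67 for Pdyn, 0.26 and -0.91 for Pnoc, and 0.01 and 0.15 for Pomc.

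The 29 listed genes of the opioid peptide pathway comprise processing enzymes and their helpers, granule proteins, peptidases, receptors and factors acting on precursor transcription. None was called in all cells (29 tested, median log2 fold change 0.00, as for all genes), D1 neurons (26 tested, 0.02 against 0.00), D2 neurons (26 tested, -0.03 against 0.00) or non-spiny neurons (27 tested, -0.09 against -0.01). The smallest p values were those of the peptidases Anpep and Ace in all cells (log2 fold changes -1.06 and 1.02), of Mme, which encodes neprilysin, and the prohormone convertase Pcsk1 in D1 neurons (0.40 and 0.61), of Fos and the granule protein Scg2 in D2 neurons (0.41 and -0.37), and of Creb1 and the peptidase Dpp3 in non-spiny neurons (-0.39 and -0.55). Each had an adjusted p of 1.00 by edgeR's quasi-likelihood test. The convertase Pcsk2 was present in both spiny types, at 580 ± 85.4 and 512 ± 113 CPM in D1 neurons and 622 ± 58.8 and 586 ± 115 CPM in D2 neurons after morphine and mock. Among the receptors, Oprk1 had 93.0 ± 17.5 and 93.2 ± 22.0 CPM in D1 neurons and Oprd1 15.5 ± 3.62 and 15.99 ± 4.501 CPM in D2 neurons, in the same order, while Oprm1, the main receptor of morphine, had 33 UMIs in all morphine and 55 in all mock D1 neurons.

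Sorted oligodendrocytes held few reads of the precursors, and Penk fell after morphine. It had 14, 3 and 20 reads in morphine samples 1 to 3, which is 0.738, 0.164 and 0.853 CPM. In mock samples 1 to 3 it had 59, 24 and 50 reads, which is 2.74, 1.601 and 2.71 CPM. Every morphine sample was below every mock sample, at means of 0.585 ± 0.369 and 2.35 ± 0.647 CPM (SD, n = 3 each). The log2 fold change was -1.95 (SE 0.42, adjusted p = 0.00227, edgeR's quasi-likelihood test), in a comparison in which 6.66% of 15741 genes were called lower, 8.09% higher and 14.7% in either direction, and in which 29.1% of genes did not overlap. In the authors' deposited table the log2 fold change of Penk is -1.26 with a standard error of 0.310 and an adjusted p of 0.000700. In such bulk samples fewer cells of a type and less RNA per cell cannot be told apart.

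The other 3 precursors were at the level of single reads. Pdyn had 4, 8 and 5 reads after morphine and 6, 7 and 11 after mock, Pnoc 4, 7 and 4 against 5, 6 and 4, and Pomc 3, 9 and 13 against 6, 3 and 12. Their groups overlapped, and none passed the filter on low counts. In the authors' deposited table their log2 fold changes are -0.23, -0.03 and 0.06, with no adjusted p.

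**Figure D5:**
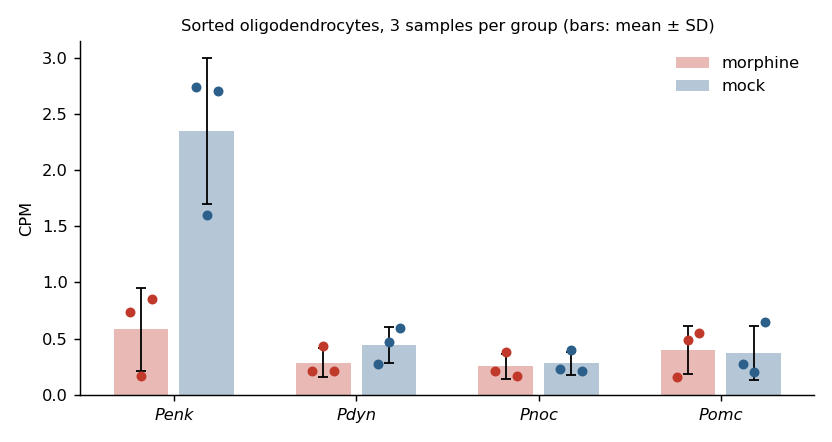
CPM (vertical axis, from 0) of the 4 precursors in sorted oligodendrocytes, with bars at the mean, error bars of 1 SD and a point for each of 3 morphine (red, left) and 3 mock (blue, right) samples. Only for Penk do the groups separate, at 0.164 to 0.853 against 1.601 to 2.74 CPM.

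Markers of other cells were measured in the same sorted samples. The 9 oligodendrocyte markers summed to 18891 to 19297 CPM in morphine and 17236 to 18152 CPM in mock samples, and went in both directions. Of them 1 rose, Mobp, at means of 5000 against 3397 CPM (log2 fold change 0.58). The 4 that fell were Opalin (-0.31), Ermn (-0.47), Ugt8a (-0.20) and Aspa (-0.53). The 8 general spiny neuron markers were all present, summed to 233 to 244 against 204 to 221 CPM, and had a median log2 fold change of -0.25; 1 rose (Adcy5, 0.41) and 1 fell (Meis2, -0.46), and both are known in other cells as well. Of the D2 markers, 4 passed the filter on low counts and none was called: Adora2a had 11, 8 and 14 reads against 22, 21 and 7, and Drd2 had 57, 50 and 56 against 40, 40 and 42. The D2 list summed to 6.50 to 8.70 CPM in morphine and 5.36 to 9.47 CPM in mock samples. Lower in every morphine sample than in every mock sample were the sums of the excitatory neuron markers (8.25 to 8.40 against 9.41 to 14.3 CPM, 0 called), the Sst and Npy markers (2.73 to 3.11 against 4.08 to 6.87 CPM, 0 called) and the endothelial markers (40.4 to 55.2 against 64.0 to 67.9 CPM, 4 of 8 fell). The same held for the microglia markers (55.3 to 55.98 against 56.8 to 66.1 CPM, 2 of 9 fell). Higher in every morphine sample, besides the oligodendrocyte and general spiny lists, was the sum of the markers of non-spiny neurons of other kinds (186 to 199.8 against 147 to 164 CPM, 1 rose). Most of that sum was Nap1l5, the gene that rose, at means of 152 against 118 CPM. Ahi1 was little higher (32.3 against 31.1 CPM). Gad2 (2.67 against 4.37 CPM), Zic1, Ecel1 and Resp18 had lower means after morphine, and none of these was called. The part of other cells in the Penk difference was not tested.

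Among the 27 other pathway genes tested after sorting, 3 were higher after morphine and 1 was lower, a share near the 14.7% of all genes called, with a median log2 fold change of -0.02, the same as over all genes. Scg5, the chaperone of convertase 2, averaged 29.9 ± 2.31 CPM after morphine and 24.0 ± 3.11 CPM after mock (log2 fold change 0.34, SE 0.09, adjusted p = 0.0162, edgeR). The granule protein Scg3 averaged 43.9 ± 1.22 and 36.6 ± 1.07 CPM (0.29, SE 0.07, adjusted p = 0.00538, edgeR), and the protease Ctsl 18.4 ± 0.752 and 13.8 ± 1.42 CPM (0.43, SE 0.10, adjusted p = 0.00545, edgeR). The gene that fell was Creb1, a transcription factor that acts on the Penk and Pdyn genes, at 60.4 ± 1.75 and 71.1 ± 2.00 CPM (-0.21, SE 0.06, adjusted p = 0.0286, edgeR). Penk in the oligodendrocyte class of the accumbens was 394, 396, 280 and 257 CPM after morphine and 1034, 454, 178 and 529 CPM after mock, with overlapping pools. These values were below the mean of microglia, endothelial and mural cells together, 1037 ± 527 CPM.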

How the data were processed

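Per the file headers, the authors made the accumbens values with DigitalExpression of the Drop-seq tools, and these deposited tables are unnormalised UMI counts for each cell barcode. The deposited sorted-cell table holds raw read counts per gene from amplified RNA. The authors' deposited table for it holds log2 fold changes with standard errors, a test score, a mean normalised signal, and p-values. The submitters' processing notes list, with build mm10 and without roles, STAR 2.4.2a, Trimmomatic 0.36, DESeq, DESeq2 and HTSeq.

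Kept were 33216 of 36000 barcodes, those with 300 genes or more and no more than 20% of UMIs from mitochondrial genes, and 679 doublets called by Scrublet were removed. The caller marked at most 0.174% of cells in 5 of the 8 pools, so doublets remain there. Cells were clustered with scanpy 1.11.5 (2000 variable genes, 30 components, resolution 1) without the 4 precursors and with each pool centred. Spiny and other inhibitory neurons were clustered again on 1000 variable genes. A class was named from at least 3 markers. Mixed clusters (5.50% of morphine and 5.81% of mock cells), spiny clusters that met no rule (12.2% and 11.3%) and other unnamed clusters (0.520% and 0.471%) were kept out of the named classes, by limits set after seeing the data. The group of non-spiny neurons nonetheless took in the unnamed cluster led by Cplx3, Ndnf and Kit, beside the named non-spiny classes. Gene symbols of the replicate 1 pools were matched to those of the others, which left out 0.764% of their UMIs. A CPM is per 1000000 UMIs of the same class and pool, and needs at least 10 cells.

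Sums per pool were tested with edgeR 4.0.16 (R 4.3.3; TMM, filterByExpr, quasi-likelihood, no covariate), after a run on simulated data, and DESeq2 1.42.0 was an alternative. TMM rescales the libraries, so a fold change can differ from the ratio of mean CPM. Rows of the sorted table that name no gene held 69.5% to 74.3% of reads and were left out. Each pool of 2 mice is a replicate; the sorted columns, numbered as their headers do, have no stated number of mice, and nothing says that they came from separate mice, so their p-values measure the spread between these samples, which may be technical. Shares and counts near 0 carry counting error, and read counts without molecular identifiers are not independent molecules. Named genes were the precursors, the pathway list (values for those called, otherwise the 2 of smallest p), 3 genes of like pattern per precursor among genes reaching 20 CPM in a class, and 3 leading genes per cluster. The precursors, lists and tests were chosen with earlier results of these data known. Alternatives were other scalings, tests, filters, cell limits, thinning to 500 UMIs, subtraction of free RNA, marker scores in place of clusters, age as a covariate, each age alone, and leaving out each sample. The values of 1 gene that the naming rules pick are not reported here.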

Additional observations from a re-analysis of the deposited data

Results flagged for a closer look

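Within the mock pools, Pomc in endothelial cells stood far above the rest in pool 3, at 34.8 CPM from 13 UMIs, where the other mock pools had 19.3, 19.4 and 21.1 CPM. A gap of this size appears by chance in some groups of 4.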

How the results depend on the processing

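Of 242 recomputed values, 220 kept their direction and their side of the threshold, 9 changed direction and 13 counts or shares moved. In all cells Penk became 0.0168 in the older pools alone, Pdyn 0.00913 and Pnoc 0.26 in the younger pools alone (log2 fold changes), and none of them was called. Leaving out 1 pool moved Pnoc in all cells between -0.50 and 0.20, Penk in D2 neurons between -0.11 and 0.00 (0.000763 without morphine pool 2), Pdyn in all cells between -0.62 and -0.13, Pdyn in D1 neurons between -0.72 and -0.25, Pnoc in non-spiny neurons between -0.41 and -0.00524, Penk in all cells between -0.19 and -0.00104 and Pomc in all cells between 0.00328 and 0.24, and none was called. Leaving out both pools of 1 number moved the D2 minus D1 response of Penk between -0.24 and 0.0497 and that of Pdyn between 0.21 and 0.58. The count of genes called, 0 in all 4 accumbens comparisons as reported, became 4 in all cells, 1 in D1 and 1 in D2 neurons with DESeq2, 3 in D2 neurons with no filter on low counts and 1 in non-spiny neurons in the older pools alone. Thinning to 500 UMIs gave Penk shares of 95.3% in D2 neurons, 17.5% in D1 neurons and 18.2% in background cells, Pdyn shares of 14.3% in D1 neurons and 1.18% in background cells, and a Pnoc share of 3.497% in non-spiny neurons. Penk in sorted oligodendrocytes stayed lower and called under all its alternatives, at -2.32 to -1.53 with adjusted p between 5.28e-06 and 0.0232 (edgeR's quasi-likelihood test and DESeq2), while 1758 to 2695 genes were called without 1 sample; it rests on 37 morphine and 133 mock reads. With the replicate number as a block in the accumbens, 1 gene was called in D2 neurons and 2 in non-spiny neurons, and no precursor's call changed. Same-numbered pools deviated together (correlation over 0.1) for numbers 1 and 4 but not 2 and 3 in all cells, D1 and D2 neurons. In non-spiny neurons they did so for all 4 numbers, where the lowest was 0.11 and every pool correlated best with its own number. The labels state no pairing. Nothing states that same-numbered sorted samples belong together either, so the fit with the replicate number as a block was not run for them. The cause of these changes was not tested. Few UMIs limit Pnoc and Pomc.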
